A study of Rattus norvegicus with 64 samples.

Results

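The Hsp70 and Hsp110 chaperones were followed in the blood of rats that had been made hyperthermic by amphetamine or by a hot room. The members were found by symbol, ignoring case, for the 10 genes Hspa1b, Hspa1l, Hspa2, Hspa4, Hspa4l, Hspa8, Hspa9, Hspa13, Hspa14 and Hsph1. They stood under 13 gene identifiers of the 17366 listed in every rat, and all 13 passed the filter on low counts. The members were chosen by symbol, but with the differences in their levels between hyperthermic and saline rats of this study already known, so the levels and differences of its members are given as a description. Where calls of a fit over all genes are counted for them, the counts describe what was known when they were chosen and support nothing.

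RNA was sequenced from whole blood of 64 male Sprague-Dawley rats aged 85 to 90 days, each a separate animal. Every rat received 4 injections 2 h apart, and blood was taken by cardiac puncture 3 h after the last. Rats given amphetamine (AMPH) in a room at 22.5 C became hyperthermic (22 rats), and those that overheated were cooled on ice. Rats given AMPH in a room at 16 C stayed normothermic (15 rats, 13 used). In environmentally induced hyperthermia (EIH) rats received saline in a room at 39 C (16 rats, 15 used). The controls received saline at 22.5 C (6 rats, 4 used) or at 16 C (5 rats). The globin transcripts that dominate whole blood had been depleted before sequencing.

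Hsp70 proteins bind exposed stretches of unfolded protein and release them in a cycle driven by ATP. J-domain proteins (the Dnaj genes) deliver the client and start ATP hydrolysis, and nucleotide exchange factors, among them the larger Hsp110 relatives of Hsp70, reset the cycle. The heat-inducible members are switched on by heat shock factor 1 (Hsf1), which binds repeated GAA and TTC blocks in promoters. Hspa8 and Hspa9 serve the cytosol and the mitochondrion of unstressed cells.

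Promoter windows from RefSeq (assembly GRCr8, 250 bases before to 50 bases after the annotated start) were searched for 3 alternating blocks in a row, GAA, TTC and GAA or TTC, GAA and TTC, with any 2 bases between neighbouring blocks. These motifs are reverse complements of each other, so that both strands were covered. They were present in 267 of 33469 windows (0.798%). Of the 10 member symbols 9 had a window, the exception being Hspa1b. The windows of Hspa8 (2 matches) and Hsph1 (1 match) held such a triplet. A pair of blocks, GAANNTTC or TTCNNGAA, which every triplet also contains, was present in 15.9% of all windows and in those of 5 members (Hspa2, Hspa4l, Hspa8, Hspa9 and Hsph1). The windows of Hspa1l, Hspa4, Hspa13 and Hspa14 held neither a triplet nor a pair. The window of Hspa1a, which is not a member, was searched as well and also held neither. Whether the motifs go with the differences between groups was not tested. The stretches below run up to or near the start and are shown because Hsph1 and Hspa8 were among the members with the largest differences between groups, and Hspa2, which held only a pair, was among those with the smallest. Capitals mark every triplet and pair in the stretches. They describe letters and are not measured binding sites.
Hsph1, chr12:10427258-10427367, plus strand: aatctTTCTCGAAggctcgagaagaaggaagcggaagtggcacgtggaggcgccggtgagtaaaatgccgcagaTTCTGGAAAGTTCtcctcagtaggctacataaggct
Hspa8, chr8:50080274-50080513, plus strand: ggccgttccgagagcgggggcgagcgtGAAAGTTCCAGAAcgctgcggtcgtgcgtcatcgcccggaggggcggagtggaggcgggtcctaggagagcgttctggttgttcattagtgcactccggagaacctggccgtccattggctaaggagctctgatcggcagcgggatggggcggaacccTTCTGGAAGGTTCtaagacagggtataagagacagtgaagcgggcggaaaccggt
Hspa2, chr6:100864332-100864441, plus strand: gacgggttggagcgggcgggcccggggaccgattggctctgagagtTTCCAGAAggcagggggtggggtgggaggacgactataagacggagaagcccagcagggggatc
The triplet of Hsph1 lay at bases 36 to 24 before the start and a separate pair at bases 105 to 98. The pair of Hspa2 lay at bases 64 to 57, and that of Hspa4l lay after the start.

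The libraries held 19055615 to 40530319 counts. The 5 rats that had more than 5000 counts of Mb, the myoglobin gene of heart muscle, were left out before any comparison. These counts were not normalised, and the highest value in the other rats was 1133. The deposited files also carry a code at the start of their names that was not spread evenly over the groups. EIH and saline at 22.5 C shared none, so those groups and the code cannot be told apart. All saline rats at 16 C carried 1 code, which no saline rat at 22.5 C and only 1 AMPH rat at 16 C carried. The 2 saline groups and the code thus cannot be told apart either. Rats 16 and 17 of the group given AMPH at 22.5 C stood apart from the other 20 in Hspa1b, Hsph1 and Hspa8. Most results that rest on them are given with and without them. They carried the same code as 3 of the 4 saline rats at 22.5 C. They were kept under their labels, and whether those labels are right was not tested. Levels are normalised counts, that is counts divided by a size factor for each library.

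Hspa1b, the stress-inducible cytosolic Hsp70, was at trace level in saline rats and was far higher in most hyperthermic rats. In saline at 22.5 C the 4 rats had 9.69, 17.5, 11.6 and 18.3 normalised counts. In saline at 16 C the 5 rats had 10.6, 12.0, 6.69, 5.65 and 13.5. Both control groups therefore sat below 20 normalised counts. In EIH the lowest rat had 1550, the median was 49371 and the highest rat had 255896. All 15 EIH rats lay above every saline rat, and the median was 3398 times that of saline at 22.5 C. Among rats given AMPH at 22.5 C the lowest had 7.59, the median was 8667 and the highest had 166592. Of these 22 rats 21 lay above every saline rat. Rats 17 (7.59) and 16 (37.2) were far below the third lowest (1135). With AMPH at 16 C the levels ran from 11.9 through a median of 31.0 to 476, and 9 of 13 rats lay above every saline rat. The step from a cool to a warm room under AMPH was thus far larger than the step from saline to AMPH in the cool room. Hspa1b was listed under 2 identifiers (ENSRNOG00000045654 and ENSRNOG00000050647) whose values were identical in 64 of 64 rats. How the counting divided reads between them was not tested, so the level of either one is uncertain. In whole blood, fewer cells of a type and less RNA per cell cannot be told apart.

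On the log2 scale of the count model (edgeR, difference ± SE), Hspa1b was 12.10 ± 2.02 higher in EIH than in saline at 22.5 C, and 11.12 ± 1.87 higher with the file code as a covariate. These groups share no code, so the fit with the covariate links them only indirectly, through AMPH rats at 22.5 C that share codes with each. This holds for every value or call of EIH against saline at 22.5 C with that covariate. Under AMPH at 22.5 C it was 10.79 ± 1.92 higher than in the same saline rats, and 10.93 ± 1.68 higher without rats 16 and 17. With AMPH at 16 C it was 2.99 ± 1.26 higher than in saline at 16 C. Each SE rests on 1 spread per gene estimated over all 5 groups, and is not the spread of the groups compared. AMPH at 22.5 C exceeded AMPH at 16 C by 8.35 ± 0.97, and by 8.49 ± 0.85 without rats 16 and 17. EIH exceeded AMPH at 22.5 C by 1.31 ± 0.60, and by 1.17 ± 0.54 without those rats. EIH and AMPH at 22.5 C share the control rats at 22.5 C.

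Spread between rats in Hspa1b was smaller in both saline groups than in the other 3 groups. The SD of log2 values (normalised counts plus 1) was 0.418 in saline at 22.5 C and 0.489 in saline at 16 C. It was 1.48 with AMPH at 16 C, 2.02 in EIH and 3.38 with AMPH at 22.5 C, where rats 16 and 17 were included. This SD was not computed without those rats. Hyperthermic rats of one group thus differed from each other far more than saline rats did. They also carried more file codes, 11 with AMPH at 22.5 C and 8 in EIH. Saline rats carried 2 at 22.5 C and 1 at 16 C. The part of the code in the spread was not tested.

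**Figure D1:**
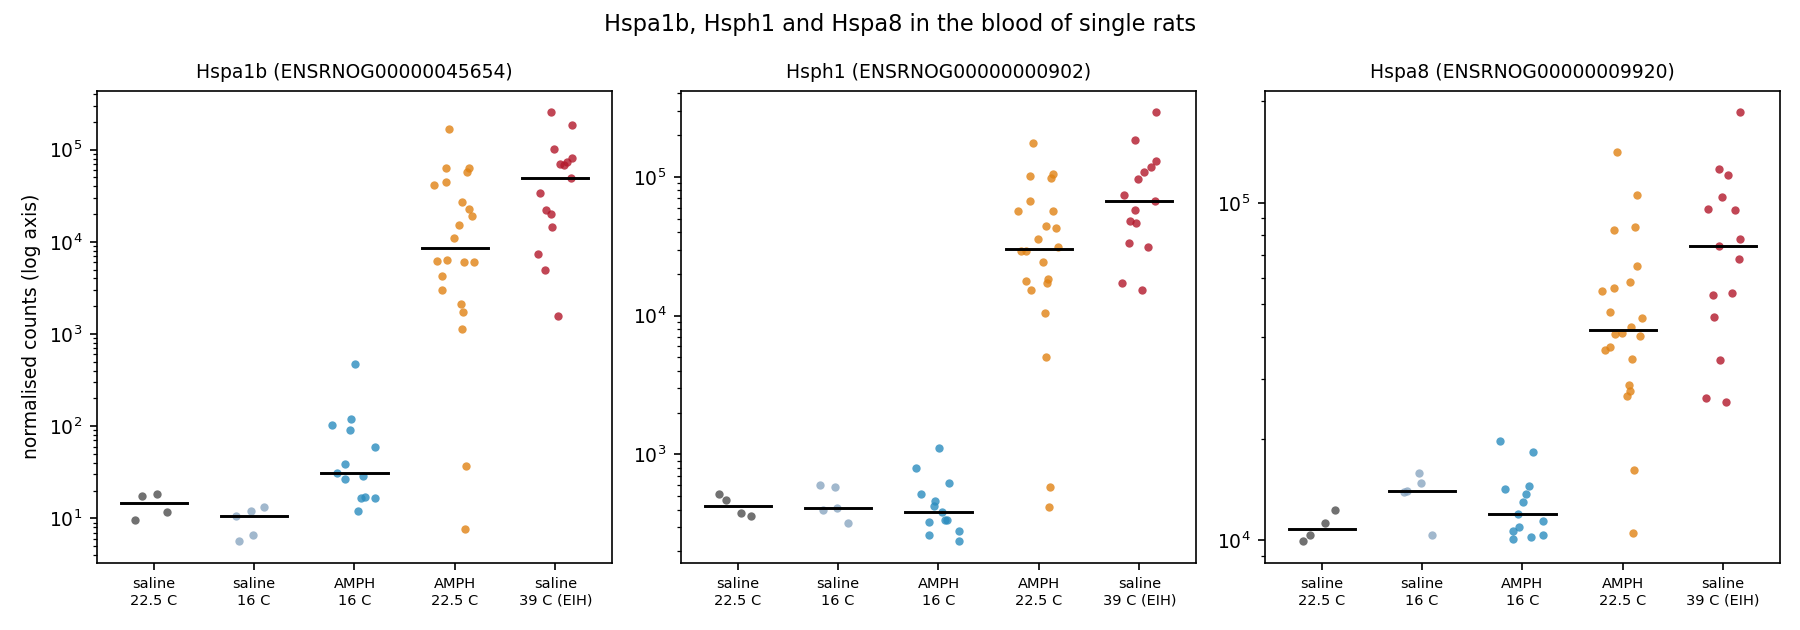
Normalised counts (log axis) of the leading Hsp70 and Hsp110 genes in each rat of the 5 groups, with a black line at each group's median. Every EIH rat lies above every saline rat for Hspa1b, Hsph1 and Hspa8, and AMPH rats 16 and 17 at 22.5 C lie near the saline rats; the 5 left-out rats are not drawn.

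Hspa1l, a close relative of Hspa1b that is encoded beside it and is best known from testis, was at 0 in all 9 saline rats. With AMPH at 16 C 12 of 13 rats were at 0 and the other had 0.864 normalised counts. Of the rats given AMPH at 22.5 C 6 of 22 were at 0, the median was 1.23 and the highest rat had 25.5. In EIH 3 of 15 rats were at 0, the median was 4.05 and the highest rat had 55.5. Most hyperthermic rats thus had a few counts where no saline rat had any. Against a floor of 3 counts over the control group at 22.5 C, the mean was at least 29.3-fold higher in EIH and at least 8.38-fold higher with AMPH at 22.5 C. How far reads from Hspa1b were assigned to this near copy was not tested.

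Hsph1 (Hsp105), the stress-inducible Hsp110 that acts as an exchange factor for Hsp70, showed the second large difference. The 4 rats given saline at 22.5 C had 516, 470, 363 and 379 normalised counts. The 5 rats given saline at 16 C had 605, 578, 411, 396 and 318. These values form one narrow band. In EIH the levels ran from 15377 through a median of 66939 to 294342, so the lowest EIH rat was far above the highest saline rat. Rats given AMPH at 22.5 C ran from 418 (rat 17) through 30442 to 175262. Rat 16 had 581 and the next lowest rat 5060, so the other 20 rats did not overlap with any saline rat. With AMPH at 16 C the levels ran from 237 through 382 to 1119, around those of saline. The differences from saline at 22.5 C were 7.64 ± 1.10 in EIH and 6.68 ± 1.04 with AMPH at 22.5 C on the log2 scale (SE). AMPH at 16 C differed from its saline group by −0.00 ± 0.63, and by 0.64 ± 0.95 with the file code as a covariate. AMPH at 22.5 C exceeded AMPH at 16 C by 6.58 ± 0.59. Without AMPH rats 16 and 17 the differences of Hsph1 with AMPH at 22.5 C were 6.82 ± 0.86 against saline and 6.71 ± 0.48 against AMPH at 16 C.

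The other Hsp110 members, Hspa4 (Apg-2) and Hspa4l (Apg-1), showed smaller differences than Hsph1. Hspa4 had 1734, 2315, 1982 and 2026 normalised counts in saline at 22.5 C. In saline at 16 C it had 1888, 2102, 2290, 2116 and 2344. Its level ran from 1317 through 1632 to 2357 with AMPH at 16 C, the lowest median of the 5 groups. With AMPH at 22.5 C it ran from 1748 through 2620 to 6088, and 13 of 22 rats lay above every saline rat. In EIH it ran from 1924 through 3200 to 6548, and 11 of 15 rats did. Both hyperthermic groups overlapped with saline at their lower ends. On the log2 scale the differences (SE) were 0.78 ± 0.26 in EIH and 0.47 ± 0.24 with AMPH at 22.5 C against saline, and 0.69 ± 0.15 between AMPH at 22.5 C and at 16 C. Without AMPH rats 16 and 17 the latter values of Hspa4 were 0.50 ± 0.25 and 0.72 ± 0.16.

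Hspa4l was a low-count gene in blood. It had 14.0, 6.67, 14.7 and 7.45 normalised counts in saline at 22.5 C, and 12.7, 25.01, 12.3, 16.0 and 10.6 in saline at 16 C. With AMPH at 16 C it ran from 3.38 through 11.4 to 23.9, with no rat above every saline rat. Under AMPH at 22.5 C it ran from 8.86 through 20.4 to 102, and in EIH from 10.6 through 46.7 to 117. Above every saline rat lay 8 of 22 and 9 of 15 rats. The log2 differences (SE) were 2.23 ± 0.56 in EIH and 1.37 ± 0.52 with AMPH at 22.5 C against saline at 22.5 C, and EIH exceeded AMPH at 22.5 C by 0.86 ± 0.29. Without AMPH rats 16 and 17 the value of Hspa4l with AMPH against saline was 1.42 ± 0.53. The saline rats left out for their Mb level had 50.6 and 43.5 normalised counts of Hspa4l. With all rats kept its differences from saline were 1.199 ± 0.48 in EIH and 0.28 ± 0.44 with AMPH, and that of saline at 16 C against saline at 22.5 C went from 0.53 to −0.56.

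Hspa8 (Hsc70), the constitutive cytosolic Hsp70 whose promoter stretch with a pair of triplets is shown above, started from a high level. Under its main identifier, ENSRNOG00000009920, it had 9922, 10327, 12318 and 11230 normalised counts in saline at 22.5 C. In saline at 16 C it had 13861, 15832, 14747, 13985 and 10343. The group at 16 C thus had the higher median. In EIH it ran from 25679 through 74607 to 185813, above every saline rat in 15 of 15. With AMPH at 22.5 C it ran from 10496 (rat 17) through 41952 to 141278. Rat 16 had 16139 and the next lowest rat 26693, so again 20 of 22 rats stood clear of saline. With AMPH at 16 C it ran from 10076 through 11966 to 19696, within or near the saline range. The log2 differences from saline at 22.5 C (SE) were 2.81 ± 0.46 in EIH and 2.21 ± 0.43 with AMPH, and AMPH at 22.5 C exceeded AMPH at 16 C by 1.98 ± 0.25. Without AMPH rats 16 and 17 the values of Hspa8 with AMPH at 22.5 C were 2.31 ± 0.39 and 2.08 ± 0.23.

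A second identifier with the symbol Hspa8, ENSRNOG00000032585, took 0.371% to 3.73% of the counts of the pair. Its level ran from 38.5 to 201 normalised counts in saline at 22.5 C, from 97.2 to 3562 with AMPH at 22.5 C and from 212 to 2265 in EIH. Its log2 differences from saline at 22.5 C were 3.12 ± 0.66 (SE) in EIH and 2.77 ± 0.63 with AMPH. With the file code as a covariate they were 1.82 ± 0.61, no longer called, and 1.96 ± 0.53. How reads were divided between the identifiers was not tested, so its values are uncertain.

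Hspa9 (mortalin), the Hsp70 of the mitochondrial matrix, had 758, 732, 482 and 594 normalised counts in saline at 22.5 C and 501, 496, 628, 542 and 502 in saline at 16 C. It ran from 328 through 441 to 589 with AMPH at 16 C and from 494 through 639 to 1710 in EIH. With AMPH at 22.5 C it ran from 31.4 through 544 to 868. The low end was 1 animal, rat 21, and the next lowest rat had 454. All groups overlapped. The log2 differences of Hspa9 (SE) were 0.23 ± 0.29 in EIH and −0.15 ± 0.27 with AMPH at 22.5 C against saline, each smaller than its SE.

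Hspa13 (Stch), a microsomal Hsp70 relative with a truncated substrate-binding part, ran against the inducible members in 1 comparison. It had 95.3, 138, 182 and 120.3 normalised counts in saline at 22.5 C and 107, 62.0, 259, 202 and 116 in saline at 16 C. With AMPH at 16 C it ran from 152 through 271 to 360, the highest median of the 5 groups. Under AMPH at 22.5 C it ran from 26.2 (rat 21) through 133 to 417, and in EIH from 76.9 through 213 to 497. AMPH at 22.5 C was therefore below AMPH at 16 C, by −0.71 ± 0.22 on the log2 scale (SE), while Hspa1b was above it. EIH exceeded saline at 22.5 C by 0.77 ± 0.39.

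Hspa14 (Hsp70L1), which works with a J-domain protein at the ribosome, had its lowest median with AMPH at 16 C. Under ENSRNOG00000015212 it had 307, 312, 245 and 306 normalised counts in saline at 22.5 C and 232, 240.1, 293, 299 and 255 in saline at 16 C. It ran from 157 through 221 to 289 with AMPH at 16 C, from 171 (rat 21) through 301 to 418 with AMPH at 22.5 C, and from 149 through 244 to 329 in EIH. AMPH at 22.5 C exceeded AMPH at 16 C by 0.52 ± 0.11 on the log2 scale (SE), short of the fold limit of a call, and by 0.60 ± 0.12, a call, with the file code as a covariate. Its median was higher at 22.5 C in 5 of 5 shared codes. EIH had the lower level in the comparison of the hyperthermic groups, by −0.38 ± 0.10 on the log2 scale (SE), the opposite of Hspa1b. Its other identifier, ENSRNOG00000015196, stayed between 1.63 and 19.9 normalised counts over all groups.

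Hspa2, the Hsp70 of spermatogenic cells, was low throughout. It had 22.6, 14.4, 10.1 and 22.3 normalised counts in saline at 22.5 C and 20.1, 10.0, 7.81, 14.1 and 8.66 in saline at 16 C. With AMPH at 16 C it ran from 4.62 through 19.0 to 29.2, with AMPH at 22.5 C from 0 through 12.4 to 33.9, and in EIH from 5.57 through 17.6 to 49.2. All groups overlapped. The log2 differences (SE) from saline at 22.5 C were 0.26 ± 0.48 in EIH and −0.19 ± 0.45 with AMPH, so a difference of the size seen for Hspa4 could not be told from the spread.

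**Figure D2:**
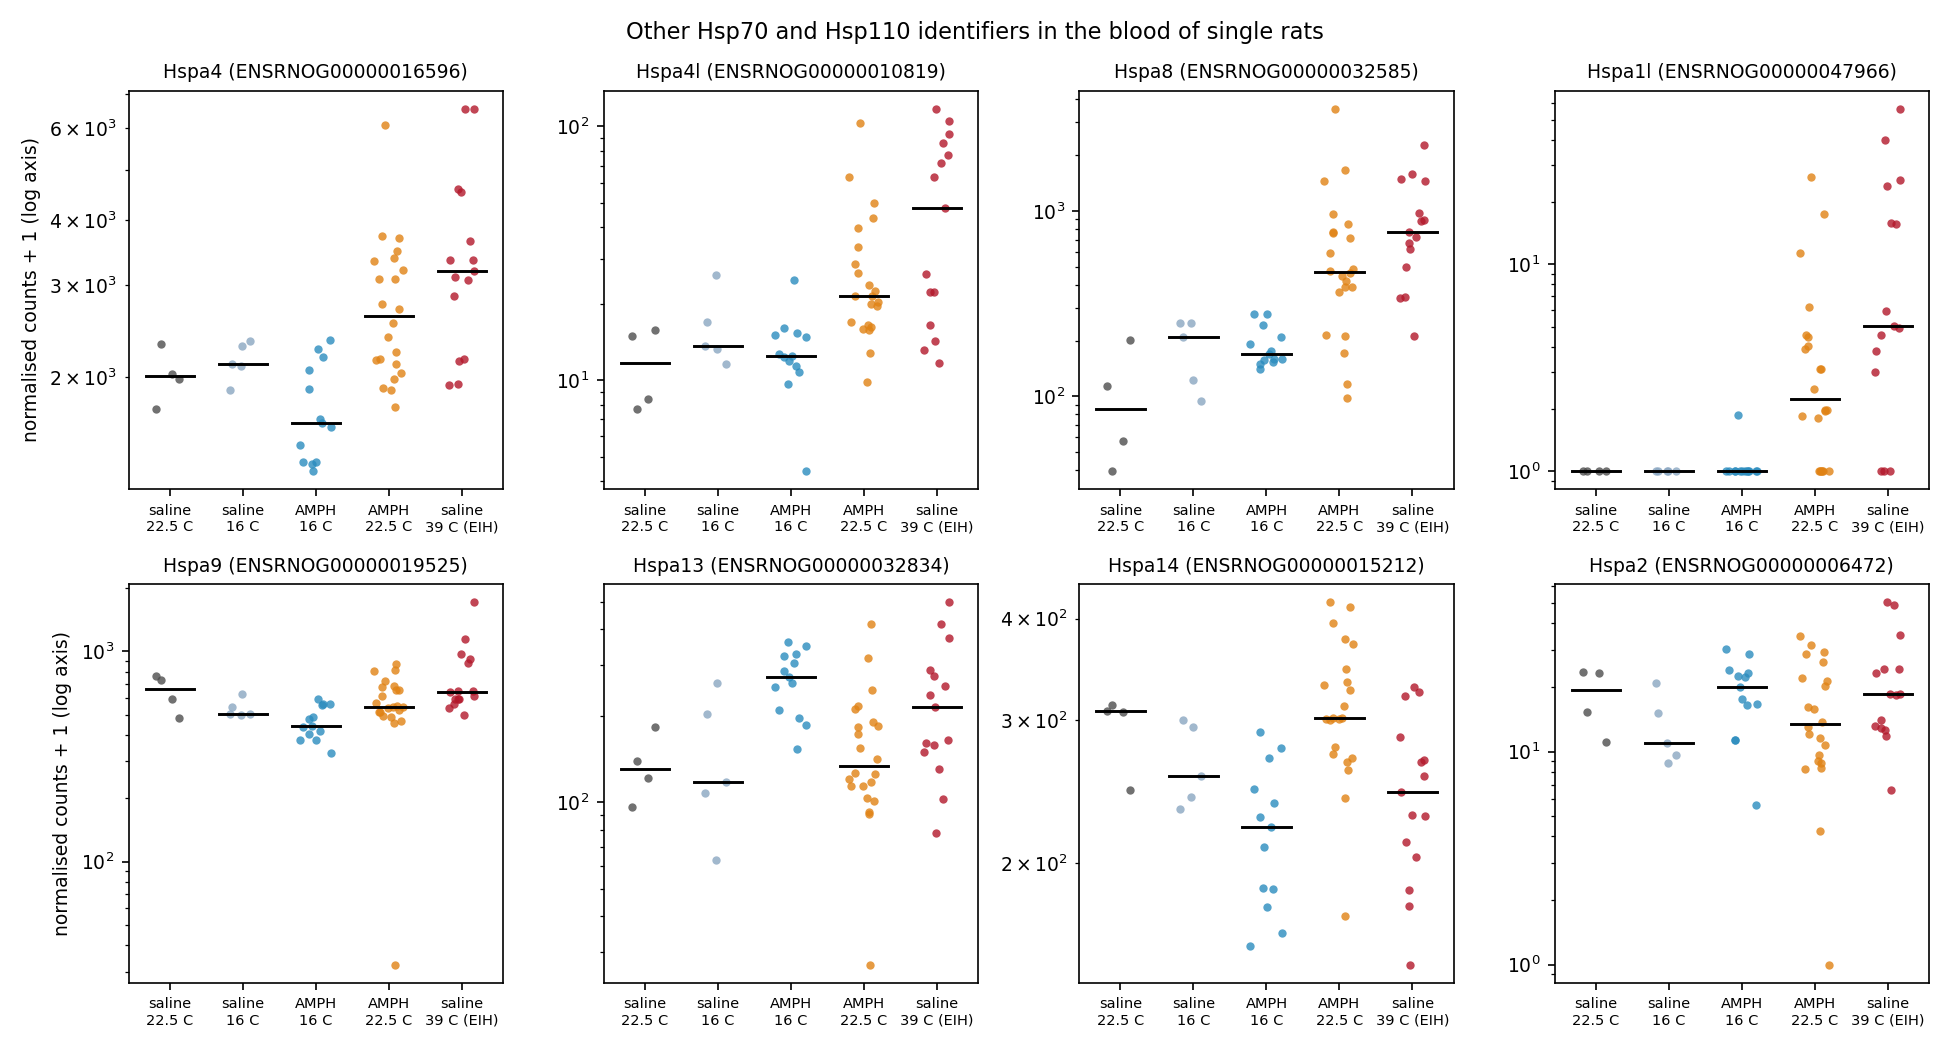
Normalised counts plus 1 (log axis) of the remaining Hsp70 and Hsp110 genes in each rat, by group, with a black line at the median. The groups overlap for Hspa2, Hspa9, Hspa13 and Hspa14, and Hspa9 reaches down to 31.4 in AMPH rat 21.

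Taken over the list, 8 of the 13 identifiers (Hspa1b under both, Hspa1l, Hspa4, Hspa4l, Hspa8 under both and Hsph1) were called higher in EIH than in saline at 22.5 C, and 0 were called lower. A call needed an edgeR adjusted p below 0.05 and a log2 difference above 0.58. Of all 13815 genes tested, 13.6% were called higher and 10.2% lower in that comparison. With AMPH at 22.5 C against the same saline rats 6 identifiers were called higher and 0 lower, beside 6.83% and 4.96% of all genes. Hspa4 and Hspa4l, called in EIH, were not called there, and without AMPH rats 16 and 17 Hspa4l was, which made 7. AMPH at 16 C against saline at 16 C gave 0 calls in the list and 0 over all genes by edgeR, where 1010 genes had an unadjusted p below 0.05 and DESeq2 called 63.

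Between AMPH at 22.5 C and AMPH at 16 C, 8 identifiers were called higher, the ones named for EIH, and Hspa13 was called lower, beside 6.64% and 3.74% of all genes. EIH against AMPH at 22.5 C gave 2 calls, Hspa1l and Hspa4l, both higher in EIH (3.94% of all genes higher, 2.04% lower). Without AMPH rats 16 and 17 that comparison gave 0 calls in the list. Saline at 16 C against saline at 22.5 C gave 0 calls in the list and 0 over all genes by edgeR, where 1414 genes had an unadjusted p below 0.05 and DESeq2 called 95. Rats at 22.5 C given AMPH enter 3 of these comparisons, which are therefore not independent.

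The median log2 difference over the 13 identifiers was 2.23 in EIH against saline, beside 0.05 over all genes tested. It was 1.37 beside 0.02 for AMPH at 22.5 C against saline, and 1.18 beside 0.05 for AMPH at 22.5 C against AMPH at 16 C. For AMPH at 16 C against saline at 16 C it was −0.00, beside 0.01 over all genes. These medians count Hspa1b under both identifiers.

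Separation between groups was read rat by rat. In EIH against saline at 22.5 C, 5 identifiers had every EIH rat above every saline rat (Hspa1b under both, Hsph1 and Hspa8 under both), beside 1.79% of all genes, and 0 had every EIH rat below (1.68%). AMPH at 22.5 C against saline had 0 such identifiers in either direction (0.0941% of all genes higher, 0.0651% lower), and rat 17 lay among the saline rats. Without AMPH rats 16 and 17, which were set aside for their low levels of these genes so that the separation follows in part from leaving them out, 4 did (Hspa1b under both, Hsph1 and the main Hspa8), beside 1.3% of all genes. Against AMPH at 16 C and without those 2 rats, again 4 did, beside 0.138%. Neither AMPH at 16 C against saline at 16 C (0.13% of all genes higher, 0.116% lower) nor saline at 16 C against saline at 22.5 C (3.79% higher, 5.18% lower) had any.

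**Figure D3:**
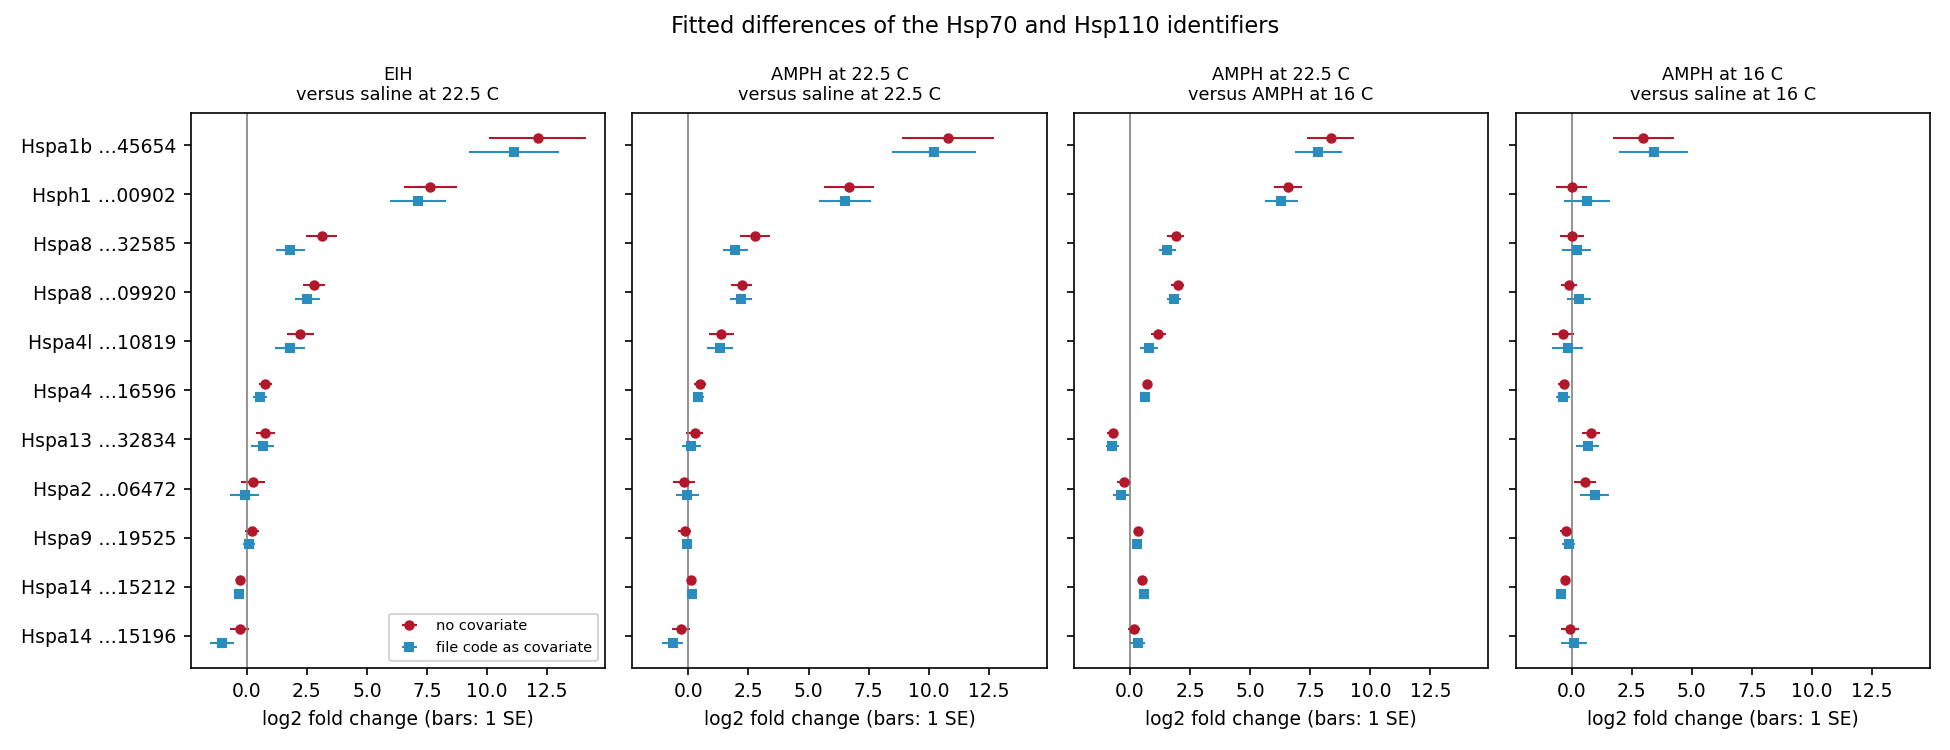
Log2 differences with bars of 1 SE for the members in each comparison, from fits with no covariate (red circles) and with the file code as a covariate (blue squares). Hspa1b lies farthest from 0 in both hyperthermic groups against saline, at 12.10 in EIH and 10.79 with AMPH at 22.5 C; the second Hspa1b identifier is not drawn because its values are identical, and Hspa1l because its controls are at 0.

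The file code allowed comparisons within sets of rats. AMPH at 22.5 C and AMPH at 16 C shared 5 codes (10 and 9 rats). In 5 of 5 codes every rat at 22.5 C lay above every rat at 16 C for Hspa1b, Hsph1 and both Hspa8 identifiers. The log2 ratios of group means, with 1 added to each mean, were 6.73 to 9.58 for Hspa1b and 5.49 to 7.97 for Hsph1. Hspa13 had the lower median at 22.5 C in 5 of 5 codes (log2 ratio of means −1.40 to −0.42). AMPH at 22.5 C and saline at 22.5 C shared 2 codes (7 and 4 rats), and in both the medians of Hspa1b, Hsph1 and Hspa8 were higher with AMPH. EIH and AMPH at 22.5 C shared 7 codes (13 and 10 rats). There Hspa1b had the higher median in EIH in 5 of 7, with log2 ratios of means from −1.28 to 4.54. The order of the hyperthermic groups was thus not the same in every code. Hspa14 (ENSRNOG00000015212) had the lower median in EIH in 7 of 7. With the code as a covariate, 4 identifiers were called higher in EIH against saline at 22.5 C (Hspa1b under both, Hsph1 and the main Hspa8, 2.17% of all genes), 5 with AMPH at 22.5 C against saline (2.39%), 8 between the AMPH groups (4.08%) and 0 in EIH against AMPH at 22.5 C (0.738%). The 5 were those 4 and the second Hspa8 identifier, and among the 8 Hspa14 (ENSRNOG00000015212) stood in place of Hspa4l. None of the members was called lower, Hspa13 in the AMPH comparison included, beside 0.803%, 0.282%, 3.08% and 0.847% of all genes in that order. Between the saline groups 0.00724% of all genes were called lower and no member was.

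Within the hyperthermic groups, the rats with more Hspa1b also had more of most other members. Relations with Hspa1b were computed on log2 values in 2 groups for 11 identifiers and the hemoglobin share, 24 in all, with permutation p-values (100000 resamples, smallest possible 1e-05) adjusted by Benjamini-Hochberg. In EIH (n = 15) Hsph1 had r = 0.877 and rho = 0.886 (permutation adjusted p = 0.00018 and 0.000144), and r = 0.845 without the 2 rats farthest from the median of Hspa1b. The main Hspa8 identifier had r = 0.847 and rho = 0.871 (permutation adjusted p = 0.00024 and 0.000144), and r = 0.856 without those 2 rats. Hspa1l (r = 0.875), Hspa4l (0.852), the second Hspa8 identifier (0.843), Hspa4 (0.753) and Hspa9 (0.672) also passed an adjusted p of 0.05. The rank correlations of these 5 were 0.914, 0.839, 0.793, 0.825 and 0.854. Without the 2 rats their r was 0.829, 0.867, 0.697, 0.822 and 0.626. Thus both the inducible members and mitochondrial Hspa9 ran in parallel with Hspa1b among EIH rats.

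With AMPH at 22.5 C, rats 16 and 17 form a cluster of their own, so r is given over the other 20. Hsph1 had r = 0.939 and rho = 0.922 (permutation adjusted p = 0.00024 for both), and Hspa8 r = 0.813 and rho = 0.762 (permutation adjusted p = 0.00024 and 0.00174). Hspa4 had r = 0.691, Hspa4l 0.666, Hspa1l 0.664, the second Hspa8 identifier 0.536, Hspa2 0.527 and Hspa9 0.453, all past an adjusted p of 0.05. Their rank correlations were 0.642, 0.562, 0.588, 0.456, 0.639 and 0.583, and that of the second Hspa8 identifier did not pass (permutation adjusted p = 0.07174). These relations of Hspa2 and Hspa9 rest on leaving out those rats, since over all 22 r was 0.175 and 0.09 and neither passed. Hspa13, both Hspa14 identifiers and the hemoglobin share of counts did not pass in either group. Within file codes, after centring each code, the relation of Hsph1 had r = 0.74 in EIH (11 rats in 4 codes) and 0.967 with AMPH (14 rats in 5 codes, without rats 16 and 17). For Hspa8 the values were 0.786 and 0.934, and for Hspa9 0.771 and 0.631 (−0.406 with rats 16 and 17). For Hspa2 the value with AMPH was 0.367 within codes. Members of one library share its size factor.

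**Figure D4:**
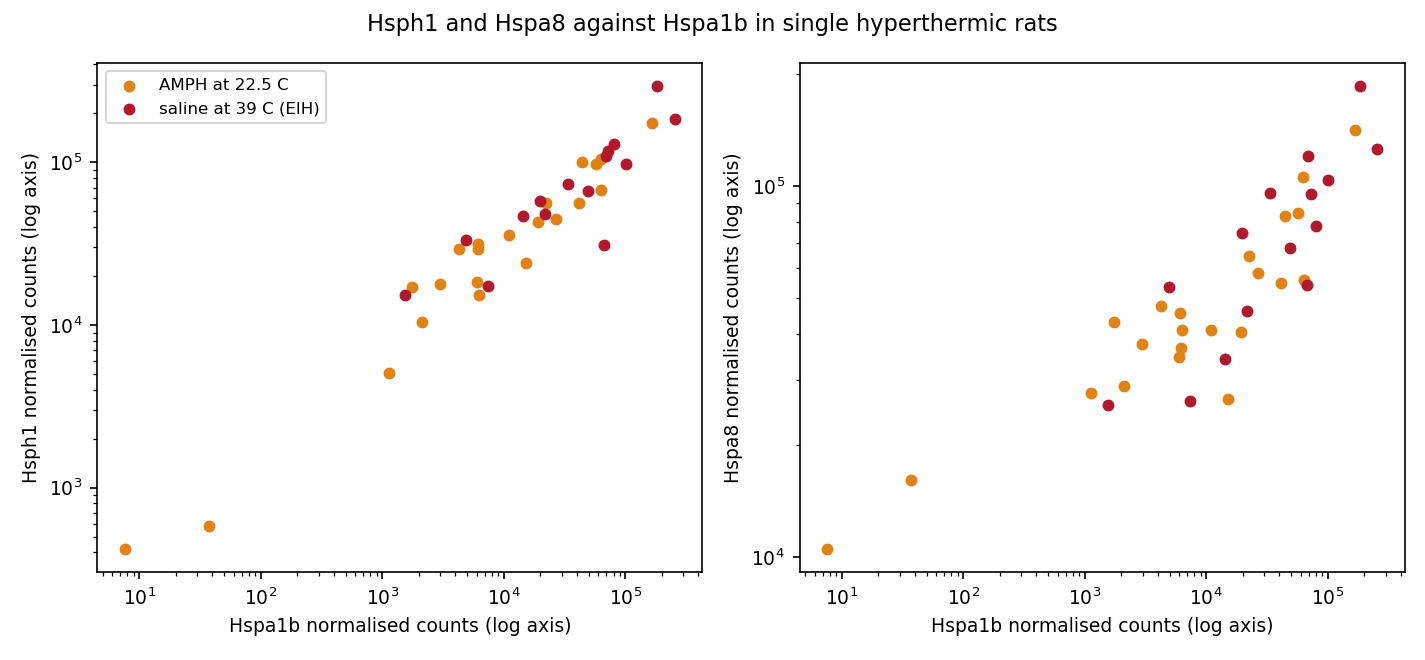
Normalised counts (log axes) of Hsph1 and the main Hspa8 identifier against those of Hspa1b in each rat of both hyperthermic groups, coloured by group. Hsph1 and the main Hspa8 identifier climb with Hspa1b within both hyperthermic groups (r = 0.877 and 0.847 in EIH). AMPH rats 16 and 17 lie at the low end, and saline rats are not drawn.

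Over all 59 rats and 7275 genes ranked, the genes outside the list whose log2 levels were most like those of Hspa1b were Hsp90ab1 and Hsp90aa1, the cytosolic Hsp90 chaperones (r = 0.969 each). Zfand2a, an arsenite-inducible zinc finger gene, followed with 0.958, the exchange factor Bag3 with 0.955 and Stip1, which links Hsp70 to Hsp90, with 0.954. Akr1b8, an aldo-keto reductase, had 0.940, Uspl1 0.937 and Hspd1, the mitochondrial Hsp60, 0.927. Among the members Hsph1 had 0.982, the main Hspa8 identifier 0.947 and Hspa4 0.708. Hspa9 had 0.292, Hspa14 0.117 and Hspa13 −0.034. These values describe a ranking over 5 groups whose levels differ, and carry no p.

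The genes that work with Hsp70 were taken from 4 lists and fitted among all genes with edgeR. The lists were drawn up with earlier results of these rats known. Their counts and p-values are therefore a description and no independent support. Of 13 exchange and holding factors, 4 rose and 0 fell in EIH against saline at 22.5 C (13.6% and 10.2% of all genes). With AMPH at 22.5 C 5 rose, beside 6.83% of all genes. The median log2 difference of the list was 0.06 and 0.19, beside 0.05 and 0.02 over all genes. Bag3 was 4.48 ± 0.80 (SE) higher in EIH (edgeR adjusted p = 0.00019) and 3.50 ± 0.74 with AMPH. Stip1 was 3.30 ± 0.51 and 2.53 ± 0.48 higher, St13 (Hip), which holds Hsp70 on its client, 1.98 ± 0.37 and 1.82 ± 0.36, and Hspbp1, an exchange factor, 0.90 ± 0.25 and 0.67 ± 0.24. Hyou1, the Hsp110 relative of the endoplasmic reticulum, rose with AMPH (1.11 ± 0.30) and had 0.57 ± 0.29 in EIH, which was not called.

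Of 13 J-domain genes, 6 rose in EIH and 5 with AMPH at 22.5 C, and 0 fell in either. Of all genes 13.6% and 6.83% were called higher, and 10.2% and 4.96% lower. The median log2 difference of the list was 0.53 and 0.31, beside 0.05 and 0.02 over all genes. Dnaja1, the main cytosolic partner of Hspa8, rose by 4.29 ± 0.65 (SE) on the log2 scale in EIH (edgeR adjusted p = 4.604e-05) and by 3.46 ± 0.61 with AMPH. Dnajb1 (Hsp40), the heat-inducible partner of Hspa1b, rose by 3.13 ± 0.50 and 2.44 ± 0.47, and Dnaja4 by 2.21 ± 0.34 and 1.44 ± 0.32. Dnajb2 rose in EIH (1.07 ± 0.37, edgeR adjusted p = 0.029) and had 0.59 ± 0.35 with AMPH, not called. The other genes that rose with AMPH were Dnajc3 and Dnajb11 (0.95 each), which serve the endoplasmic reticulum. The 3 J-domain genes that rose in AMPH at 22.5 C against AMPH at 16 C were Dnaja1 (2.47 ± 0.33), Dnajb1 (1.89 ± 0.27) and Dnaja4 (0.73 ± 0.19). Of all genes 6.64% were called higher in that comparison.

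The list of other heat-shock chaperones changed most widely, with 13 of 16 genes higher in EIH, 12 of 16 with AMPH at 22.5 C against saline and 12 of 16 against AMPH at 16 C, and 0 lower. Its median log2 difference was 1.91, 1.55 and 1.24. In the same order, 13.6%, 6.83% and 6.64% of all genes were called higher and 10.2%, 4.96% and 3.74% lower. Hspb1 (Hsp27), a small heat-shock protein, rose by 6.82 ± 1.52 (SE) in EIH (edgeR adjusted p = 0.0015) and by 5.84 ± 1.44 with AMPH. Hsp90aa1 rose by 6.42 ± 0.91 (edgeR adjusted p = 2.198e-05) and 5.26 ± 0.84. The mitochondrial pair Hspd1 and Hspe1 (Hsp10) rose by 4.46 ± 0.94 and 3.98 ± 0.85 in EIH and by 3.16 ± 0.86 and 3.14 ± 0.79 with AMPH. These genes of the mitochondrial matrix rose while Hspa9 differed by 0.23 ± 0.29 and −0.15 ± 0.27. Hspa5 (BiP), the Hsp70 of the endoplasmic reticulum, rose by 1.18 ± 0.29 and 1.67 ± 0.30.

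Of the 4 heat shock factor genes (Hsf1, Hsf2, Hsf4 and the Hsf1-binding Hsbp1) 0 were called in either direction in any of the 6 comparisons by edgeR. Hsf1 differed from saline by −0.15 ± 0.18 (SE) in EIH and −0.11 ± 0.18 with AMPH at 22.5 C. Its transcript thus stayed within its error while Hspa1b differed by over 10 on the log2 scale. Hsbp1 had 0.59 ± 0.21 with AMPH (edgeR adjusted p = 0.053), and without AMPH rats 16 and 17 it was called higher there, as 1 of the 4 genes. None of the 4 lists had a call in AMPH at 16 C against saline at 16 C, where edgeR called 0 genes.

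Between the hyperthermic groups, 1 exchange factor (Stip1, 0.77 ± 0.24 SE), 2 J-domain genes (Dnaja4, 0.77 ± 0.17, and Dnajb4, 0.86 ± 0.21) and 6 of 16 other chaperones were higher in EIH. Of all genes 3.94% were called higher in EIH and 2.04% lower. Without AMPH rats 16 and 17 3 of the 6 other chaperones were still called higher (Hsp90aa1, Hsp90ab1 and Fkbp4), and Hyou1, Dnajb11 and Hsp90b1 were called lower. With the file code as a covariate 0 were higher in each of these lists and 1 gene in each was lower, again Hyou1 (−0.81), Dnajb11 (−0.77) and Hsp90b1 (−0.86), all 3 of the endoplasmic reticulum. Of all genes 0.738% were then called higher and 0.847% lower. In EIH against saline that covariate left 3 exchange factors (Bag3, Stip1 and St13), 3 J-domain genes (Dnaja1, Dnajb1 and Dnaja4) and 7 of 16 other chaperones higher, beside 2.17% of all genes. Hspe1 and Hspa5 were among those no longer called.

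**Figure D5:**
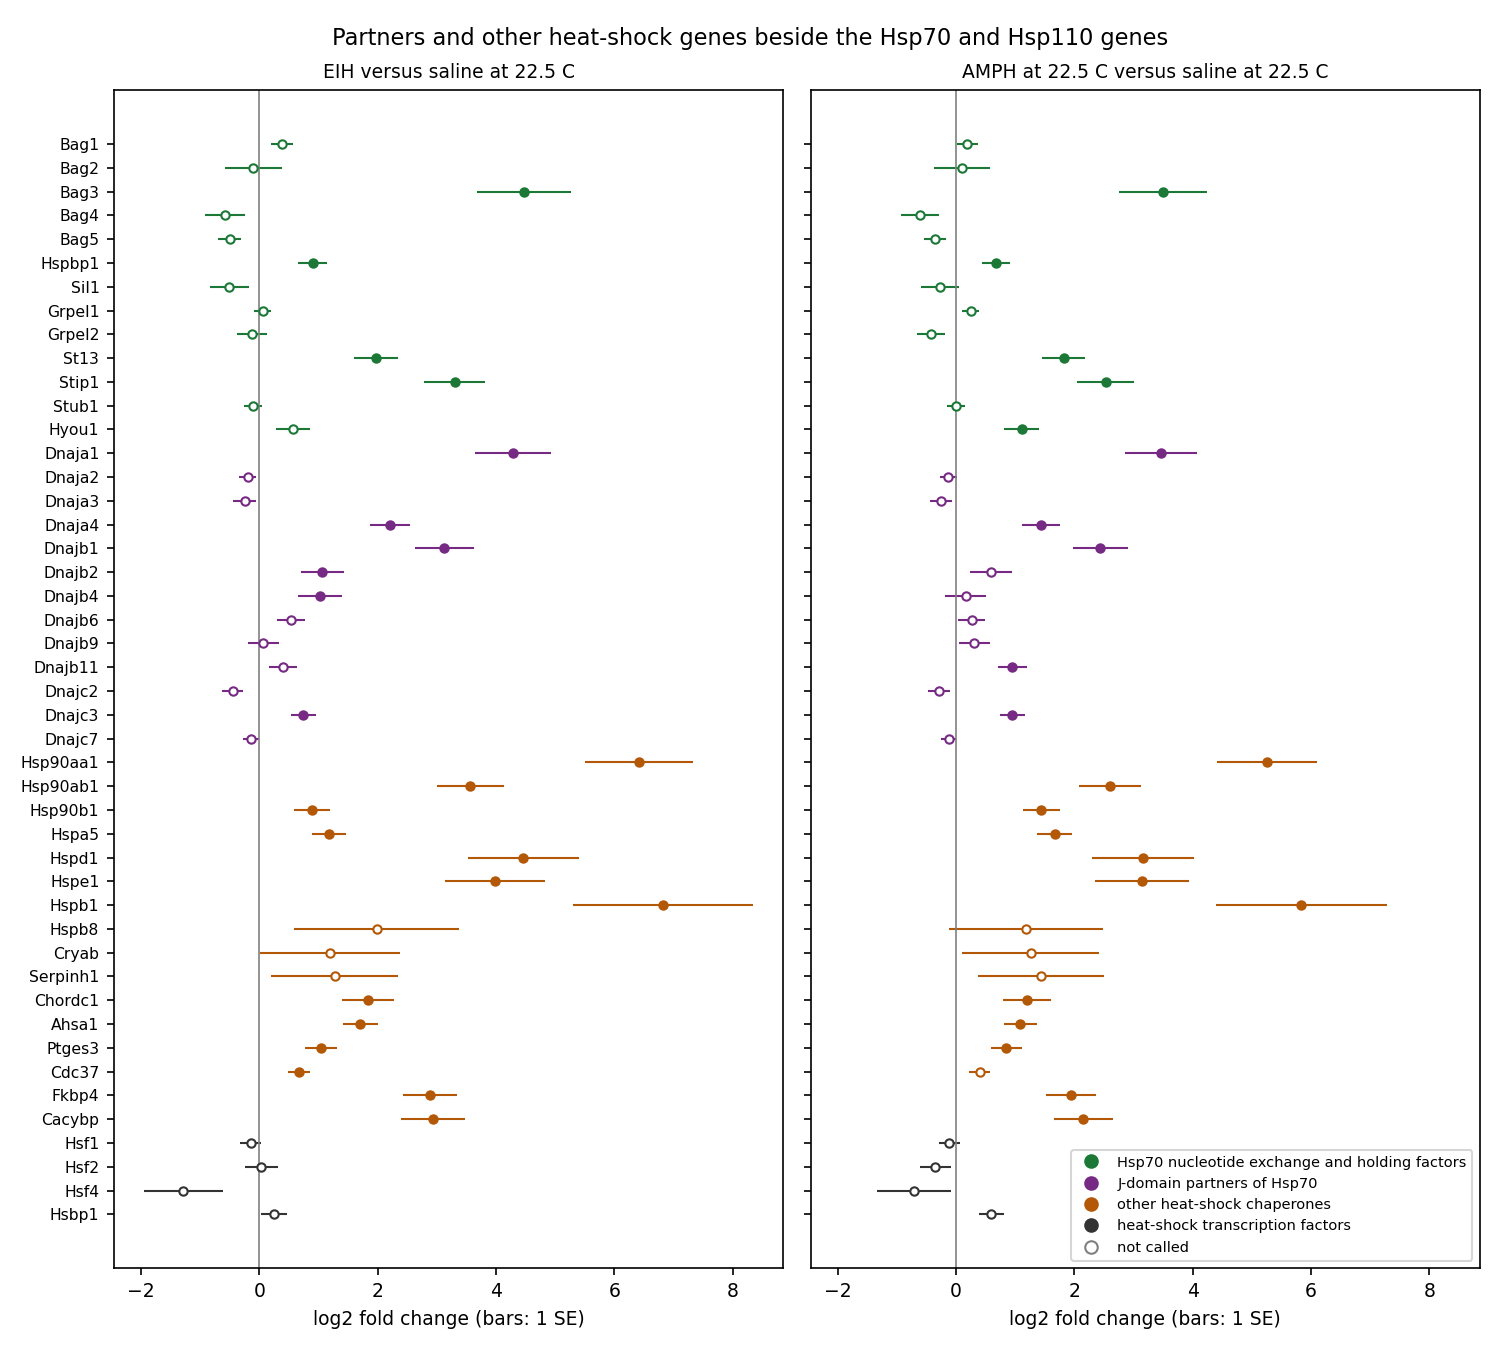
Log2 differences of the genes that work with Hsp70, coloured by list, in each comparison. Filled points passed the edgeR threshold and open points did not; the other heat-shock chaperones lie highest (median 1.91 in EIH), and the 4 heat shock factor genes are all open.

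Markers of blood cell types, from lists also drawn up with earlier results of these rats known, differed between groups as well. The median summed level of the T cell list, relative to saline at 22.5 C, was 0.166 in EIH, 0.41 with AMPH at 22.5 C, 0.416 with AMPH at 16 C and 0.617 in saline at 16 C. The summed level ran from 443 to 784 CPM in saline at 22.5 C and from 29.2 to 435 CPM in EIH. Its genes were called lower in 8 of 8 cases in EIH and in 5 with AMPH at 22.5 C, and with the file code as a covariate in 1 (Cd2) and 0. Of all genes 10.2% and 4.96% were called lower, and 0.803% and 0.282% with that covariate. Between AMPH at 22.5 C and AMPH at 16 C 0 of 8 T cell genes were called. In that comparison 2 of 5 B cell genes and 1 of 6 platelet genes were called higher, and 1 of 6 reticulocyte genes lower, beside 6.64% and 3.74% of all genes. Platelet genes were called higher in 6 of 6 cases in EIH and in 2 (Gp9 and Ppbp) with AMPH, and with the file code as a covariate in 1 each (Ppbp). The shares over all genes were 13.6% and 6.83%, and 2.17% and 2.39% with that covariate. Monocyte markers stood at 1.62, 1.73, 1.59 and 1.46 in the same order of groups, neutrophil markers at 1.09, 2.16, 2.75 and 4.03, and reticulocyte markers at 0.825, 0.853, 1.11 and 1.05. In EIH 3 of 6 reticulocyte genes (Epb42, Slc25a37 and Tfrc) were called higher against saline and 0 lower, beside 13.6% and 10.2% of all genes. The list median was 1.15 on the log2 scale, against the direction of the summed level. With the file code as a covariate 0 reticulocyte genes were called. The B cell list stood at 0.284, 0.375, 0.272 and 0.697, and the platelet list at 1.44, 1.26, 1.23 and 1.57. Heart muscle genes stood at 2.28, 4.73, 9.47 and 0.564, on summed medians of 0.217 to 3.64 CPM. The highest rats used reached 111 CPM with AMPH at 22.5 C, 101 CPM in EIH and 69.6 CPM with AMPH at 16 C. The median hemoglobin share of counts was 9.03% in saline at 22.5 C, 7.74% (range 2.99% to 27.0%) with AMPH at 22.5 C and 12.9% (2.78% to 33.3%) in EIH. The part of these cell types in the levels of the chaperones was not tested. Over all counts, the members took a median of 0.0784% in saline at 22.5 C, 0.0732% in saline at 16 C and 0.0600% with AMPH at 16 C. With AMPH at 22.5 C they took 0.409% (0.0982% to 2.04%) and in EIH 0.575% (0.232% to 2.68%).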

How the data were processed

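Blood RNA from 64 rats was depleted of globin transcripts and sequenced by the authors, who clipped adapters (fastq-mcf), aligned to rat transcripts (Ensembl annotation of rn5, per the labels' processing notes) with bowtie 0.12.9 and estimated expression with RSEM 1.2.0 after CASAVA 1.8.2. The deposited values are expected counts per gene, not normalised. Here they were rounded to whole numbers. Depth was 19055615 to 40530319 counts per rat. The floor of 3 counts covers counting error only. SEs include the spread between rats, estimated for each gene over all 5 groups together. For a gene that varied widely in hyperthermic rats, SEs between the other groups are therefore wide too.

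Groups were taken from the sample labels. The 5 rats above 5000 counts of Mb, before normalisation, were left out, which left 59. Genes kept by edgeR's filter (13815) were fitted over all 5 groups with TMM scaling and edgeR's quasi-likelihood test (edgeR 4.0.16, R 4.3.3), adjusted by Benjamini-Hochberg over all genes. Levels were divided by size factors from DESeq2 1.42.0. Correlations used scipy 1.17.1. The fits were tested on simulated data with known changes.

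The members, the pathway and marker lists and the tests were chosen with earlier results of these data known. Named outside the members were the up to 4 genes of each pathway list with the largest difference among those called in EIH against saline, all called genes of a list with 3 or fewer calls in a comparison, and the 8 genes most like Hspa1b among those with a mean CPM of at least 5. Hyou1, Hspa5, Dnajc3, Dnajb11, Hsp90b1, Hsf1, Hsbp1 and the marker genes were named after their values were seen. Alternatives tried were DESeq2, no filter on low counts, all rats kept, only the groups compared, the file code as a covariate, a replicate block, no limit on fold, only AMPH rats with one form of identifier, and each control rat left out. Leaving out AMPH rats 16, 17 and 21 at 22.5 C was chosen after seeing the data.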

Additional observations from a re-analysis of the deposited data

Results flagged for a closer look

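In 24 sets of saline rats, one for each identifier and control group with values above 0, 1 rat lay far from the rest of its group, where chance gives about 1 in 20: saline rat 19 at 22.5 C had 245 normalised counts of Hspa14 (ENSRNOG00000015212), and the nearest of the other 3 had 306.

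The 5 rats left out for their myoglobin level entered no comparison. Listed here are their levels that lay above every saline rat at 22.5 C that was kept. EIH rat 12 had 11532 normalised counts of Hspa1b under each identifier, 14.7 of Hspa1l, 37167 of Hsph1, 59091 and 1027 of the Hspa8 identifiers, 2501 of Hspa4, 87.3 of Hspa4l, 788 of Hspa9 and 223 of Hspa13. Its values of Hspa1b, Hsph1 and Hspa8 lie inside the range of the EIH rats that were kept. AMPH rat 2 at 16 C had 181 of Hspa1b, 1.92 of Hspa1l, 1063 of Hsph1, 217 of the second Hspa8 identifier, 38.5 of Hspa4l, 892 of Hspa9 and 399.9 of Hspa13. AMPH rat 12 at 16 C had 52.2 of Hspa1b, 1.49 of Hspa1l, 1275 of Hsph1, 28625 and 1397 of the Hspa8 identifiers, 47.8 of Hspa4l and 322 of Hspa14 (ENSRNOG00000015212). Saline rat 20 at 22.5 C had 50.6 of Hspa4l, 2680 of Hspa4, 914 of Hspa9, 372 of Hspa14 (ENSRNOG00000015212) and 26.7 of Hspa2. Saline rat 22 at 22.5 C had 43.5 of Hspa4l, 17008 of Hspa8 and 636 of Hsph1. Hspa4l was higher in all 5 of these rats than in every saline rat that was kept.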

How the results depend on the processing

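The counts of genes called over all 13815 were 3280 in EIH against saline at 22.5 C, 1629 with AMPH at 22.5 C against that saline, 0 with AMPH at 16 C against saline at 16 C, 1435 between the AMPH groups, 827 in EIH against AMPH at 22.5 C and 0 between the saline groups. DESeq2 called 63 with AMPH at 16 C and 95 between the saline groups. Without the low-count filter 1 member was called in EIH against AMPH at 22.5 C. Keeping all rats gave 3152 with AMPH at 22.5 C against saline and 136 between the saline groups. The file code as a covariate gave 411 in EIH (4 members), 369 with AMPH at 22.5 C, 219 in EIH against AMPH (0 members) and 1 between the saline groups. Fitting only the groups compared gave 2039 in EIH, 789 with AMPH at 22.5 C, 55 with AMPH at 16 C, 401 in EIH against AMPH (0 members) and 1 between the saline groups. Using only AMPH rats whose identifiers end in W, as those of all saline rats at 22.5 C do, gave 176 with AMPH at 22.5 C against saline, 431 between the AMPH groups (5 members) and 444 in EIH against AMPH (1 member). Without a limit on fold, 2207 genes passed between the AMPH groups and 1302 in EIH against AMPH.

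Same-numbered rats of different groups did not deviate together (mean correlation 0.02345), so the numbers do not pair them. A replicate block by that number gave 0 calls in EIH against saline (0 members), 46 with AMPH at 22.5 C (0 members), 6 with AMPH at 16 C, 353 in EIH against AMPH (0 members) and 1 between the saline groups. The rats left out in turn were each control rat and AMPH rats 16, 17 and 21 at 22.5 C, with 16 and 17 also together. No EIH rat, AMPH rat at 16 C or other AMPH rat at 22.5 C was left out in turn. The fits gave 1490 (without saline rat 17 at 22.5 C, 1937 without rat 18) to 3289 calls in EIH against saline (7 to 8 members). With AMPH at 22.5 C against saline the lowest counts were 150 without saline rat 17, 257 without rat 18 and 604 without rat 21. The highest were 2801 without both AMPH rats and 2547 without AMPH rat 17 alone, and 5 to 7 members were called. Between the AMPH groups the range was 1415 to 1700. EIH against AMPH gave 652 to 819, with 0 to 2 members. It gave 1 member without AMPH rat 16, 17 or 21 or without saline rat 1 or 3 at 16 C. Between the saline groups the range was 0 to 363 (without saline rat 19 at 22.5 C). The cause of these shifts was not tested. The 4 saline rats at 22.5 C limit both comparisons of hyperthermic rats with saline.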
